A study of Mus musculus with 5 samples.

Results

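The fibroblast growth factor (FGF) family was described here through 9 genes listed by name, with earlier results of these data known: the 5 ligand genes Fgf2, Fgf7, Fgf10, Fgf18 and Fgf21, and the 4 receptor genes Fgfr1, Fgfr2, Fgfr3 and Fgfrl1. They are 9 of 54532 named genes counted by RNA sequencing in 5 libraries of cultured mouse cancer-associated fibroblasts (CAFs), 1 library per condition. Myosin IIA KO CAFs came from a tumor in an SMA-CreERT2; R26 mT/mG; myosin IIA fl/fl mouse with Cre, and Cre- control CAFs from a mouse of that cross lacking Cre. Both carried the floxed alleles of Myh9 (the myosin IIA heavy chain), and the labels give 2 µM tamoxifen for both (the methods name 4-hydroxytamoxifen). They came from different mice, so that the knockout and the culture cannot be told apart. The inducible Cre was driven by the promoter of αSMA. Recombination thus depended on cells that used this promoter while the inducing drug was present, in a culture that also held any cells that had not. The other 3 libraries came from mouse CAFs grown out of patient-derived rectal tumor xenografts (PDX) in female Nude mice. These mice carry the Foxn1 nu mutation and lack T cells, and no floxed Myh9 or Cre allele is described for them. The PDX CAFs were treated with Fn1 siRNA (against fibronectin), with a scrambled control siRNA or not at all. More than 1 siRNA against Fn1 is described for the study, and the sources used here do not say which was sequenced. All CAF lines are described as immortalized with SV40 large T-antigen. The labels name a subcutaneous rectal tumor as the source of all 5, while the methods describe tumors of the transgenic mice as grown from mouse tumoroids in the interscapular fat pad. Those mice, with and without Cre, are described as irradiated, given donor bone marrow and injected with tamoxifen. With 1 library per condition no difference has a replicate check. Intervals of 95% cover counting error only, and no p-value is given.

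FGFs are secreted or released proteins that bind heparan sulfate on cell surfaces and in the matrix and signal through receptor tyrosine kinases, mainly by way of the Ras-ERK pathway. Sprouty and Spred proteins and the phosphatase DUSP6 dampen that pathway and are induced by it. Fibroblasts are a known source of FGF7 and FGF10, which act on the epithelial form of FGFR2, while fibroblasts themselves mainly use FGFR1. Gene-level counts do not separate the epithelial (IIIb) and mesenchymal (IIIc) splice forms of a receptor.

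The libraries held 22949566 to 26581706 counts of named genes, at which 3 counts, the most that a count of 0 allows, are 0.109 to 0.135 CPM (counts relative to library size, which was scaled by the trimmed mean of M values, TMM). Myh9 was at 426 CPM in myosin IIA KO CAFs, against 2420 CPM in Cre- control CAFs (log2 ratio -2.51, 95% interval -2.54 to -2.48). Fn1 had a log2 ratio of -1.91 between Fn1 siRNA and control siRNA CAFs. Of 10 fibroblast markers, 8 to 10 were at 1 CPM or more in each library, with Lum and Fap under 1 CPM in the 3 PDX libraries. Ptprc (CD45) and Krt8 had no count in any library, and the 6 immune markers summed to 1.44 to 2.89 CPM. Of 7 epithelial markers only Krt19 reached 1 CPM in any library, and the list summed to 4.36 to 12.5 CPM. The 5 endothelial markers summed to 3.89 to 8.57 CPM. Adipocyte and smooth muscle markers moved with the conditions and are given beside the results.

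RefSeq (build GRCm38.p6) holds a promoter for 8 of the 9 genes, Fgfr1 being the exception, from 250 bases before to 50 bases after the annotated start. Those of 5 genes are shown, because the 3 receptors Fgfr2, Fgfr3 and Fgfrl1 were all highest in myosin IIA KO, next in Cre- control and lower in the 3 PDX libraries, Fgf10 had the highest ratio of the members in the knockout comparison, and Fgf21 was high in other libraries than they were. Capitals mark the letters of motifs searched on both strands.
Fgfr2: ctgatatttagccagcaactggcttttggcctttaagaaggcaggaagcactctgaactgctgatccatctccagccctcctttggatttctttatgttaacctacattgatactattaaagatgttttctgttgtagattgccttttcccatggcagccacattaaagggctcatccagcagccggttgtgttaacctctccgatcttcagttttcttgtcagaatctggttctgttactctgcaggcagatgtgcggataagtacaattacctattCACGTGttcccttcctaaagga
Fgfr3: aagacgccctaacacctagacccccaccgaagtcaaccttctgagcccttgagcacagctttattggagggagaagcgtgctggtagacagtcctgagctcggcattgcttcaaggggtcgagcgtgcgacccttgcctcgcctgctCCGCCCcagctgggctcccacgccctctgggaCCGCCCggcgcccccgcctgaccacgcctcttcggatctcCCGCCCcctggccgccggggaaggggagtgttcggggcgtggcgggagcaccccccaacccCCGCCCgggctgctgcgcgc
Fgfrl1: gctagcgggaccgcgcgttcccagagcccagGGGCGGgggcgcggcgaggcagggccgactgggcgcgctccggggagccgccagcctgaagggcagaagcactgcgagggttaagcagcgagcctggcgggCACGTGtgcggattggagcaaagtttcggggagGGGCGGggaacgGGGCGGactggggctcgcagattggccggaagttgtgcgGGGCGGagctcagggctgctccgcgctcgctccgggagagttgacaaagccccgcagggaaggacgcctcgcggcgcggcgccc
Fgf10: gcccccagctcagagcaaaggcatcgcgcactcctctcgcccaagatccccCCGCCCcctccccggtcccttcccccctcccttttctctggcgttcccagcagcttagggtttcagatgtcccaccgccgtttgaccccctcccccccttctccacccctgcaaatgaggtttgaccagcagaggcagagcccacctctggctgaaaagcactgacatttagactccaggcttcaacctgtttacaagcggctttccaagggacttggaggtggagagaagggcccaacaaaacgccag
Fgf21: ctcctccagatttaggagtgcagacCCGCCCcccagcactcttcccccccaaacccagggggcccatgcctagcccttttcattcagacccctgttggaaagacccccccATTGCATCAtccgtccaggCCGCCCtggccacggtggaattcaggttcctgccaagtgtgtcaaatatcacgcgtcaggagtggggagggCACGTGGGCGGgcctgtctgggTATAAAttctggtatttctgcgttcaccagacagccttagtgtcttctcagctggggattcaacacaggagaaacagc

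These windows lie at chr7:130266759-130267058 (minus strand) for Fgfr2, chr5:33721474-33721773 (plus strand, the more upstream of 2 windows) for Fgfr3 and chr5:108693979-108694278 (plus strand) for Fgfrl1. Those of the ligands lie at chr13:118714449-118714748 (plus strand) for Fgf10 and chr7:45615441-45615740 (minus strand) for Fgf21. Positions are counted from the start site, negative before it, and name the leftmost letter of a match. The 3 receptor promoters did not share a set of letters. Fgfrl1 held the GC box GGGCGG (reverse CCGCCC) 4 times and the E-box CACGTG at -118, Fgfr3 held GGGCGG 4 times between -103 and 31, and Fgfr2 held only CACGTG, at 29. Fgf10 held GGGCGG at -199. Fgf21 held the most kinds of match, with the TATA box TATAAA at -28, CACGTG at -50 sharing its last letter with GGGCGG at -45, GGGCGG also at -121 and -225, and TGATGNAAT, the element read by C/EBP and ATF factors, at -140 on the reverse strand. The AP-1 motif TGANTCA and the TEAD motif GGAATG were not in any of the 9 windows of the 8 genes. Among 32851 mouse promoters of the same length, GGGCGG was in 35.7%, CACGTG in 7.15%, TATAAA in 13.6%, TGATGNAAT in 0.965%, TGANTCA in 7.81% and GGAATG in 14.7%. A match is a description of the letters and does not show a bound factor.

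Fgfr1, the main FGF receptor of mesenchymal cells, and Fgf7, the keratinocyte growth factor, were high in every library and varied least. Fgfr1 was at 301 CPM in myosin IIA KO CAFs, 279 CPM in Cre- control CAFs, 374 CPM with Fn1 siRNA, 356 CPM with control siRNA and 315 CPM in untreated PDX CAFs. Its highest level was 1.34-fold its lowest. Fgf7 was at 92.3 CPM in myosin IIA KO CAFs, 89.6 CPM in Cre- control CAFs, 75.0 CPM with Fn1 siRNA, 81.2 CPM with control siRNA and 85.1 CPM in untreated PDX CAFs, a range of 1.23-fold. The other 7 members spanned at least 3.78-fold (Fgf2), and Fgf18 spanned 24.1-fold.

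Fgfrl1 encodes a receptor that binds FGFs but lacks the tyrosine kinase domain. It was at 299.5 CPM in myosin IIA KO CAFs and 171 CPM in Cre- control CAFs, against 59.5 CPM with Fn1 siRNA, 53.0 CPM with control siRNA and 58.4 CPM in untreated PDX CAFs. The 3 PDX libraries thus lay close together and both transgenic libraries above them. Fgfr2, whose epithelial form is the receptor of FGF7 and FGF10, was at 102 CPM in myosin IIA KO CAFs, 53.4 CPM in Cre- control CAFs, 29.4 CPM with Fn1 siRNA, 23.9 CPM with control siRNA and 18.4 CPM in untreated PDX CAFs. Fgfr3, best known as a brake on cartilage growth, was at 18.2, 10.9, 4.87, 5.08 and 2.67 CPM in the same 5 libraries. For all 3 genes the order was myosin IIA KO, Cre- control and then the PDX libraries, whose own order differed between the genes, and the counting intervals of KO, Cre- control and the PDX libraries did not overlap. Fn1 siRNA and control siRNA CAFs did not differ beyond counting error for Fgfr3.

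**Figure D1:**
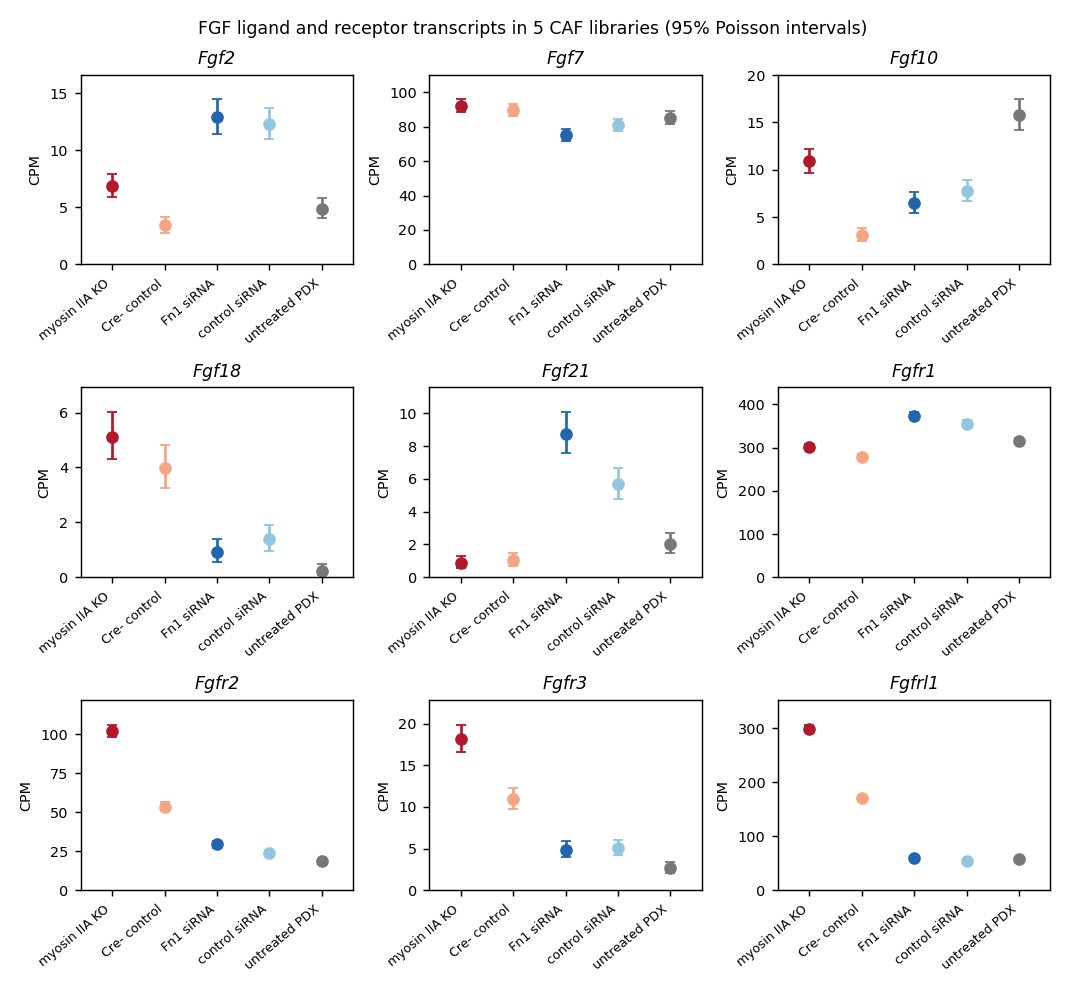
Levels of the 9 FGF genes in each of the 5 CAF libraries, in CPM on a linear axis from 0, with 1 library per condition. Points are TMM-scaled CPM and bars are exact Poisson 95% intervals, which cover counting error only. Fgfr2, Fgfr3 and Fgfrl1 were highest in myosin IIA KO CAFs (102, 18.2 and 299.5 CPM), Fgf21 and Fgf2 were highest with Fn1 siRNA (8.74 and 12.9 CPM), and Fgf10 in untreated PDX CAFs (15.8 CPM).

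Genes were ranked against each other on CPM per kilobase of gene length. Fgfrl1 was the highest member in both transgenic libraries, at 108 CPM per kilobase in myosin IIA KO and 61.3 CPM per kilobase in Cre- control CAFs. Fgfr1 was the highest in the 3 PDX libraries, at 37.9 CPM per kilobase with Fn1 siRNA, 36.0 with control siRNA and 31.9 in untreated PDX CAFs. There Fgfrl1 stood at 19.0 to 21.4 CPM per kilobase and Fgf7 at 23.1 to 26.2 CPM per kilobase, an order that turned round in all 3 libraries when the median coding transcript length was used (38.5 to 43.2 for Fgfrl1 and 30.3 to 34.3 for Fgf7). Fgfr1 and Fgf7 were neighbors in myosin IIA KO CAFs (30.5 and 28.4 CPM per kilobase) and in Cre- control CAFs (28.3 and 27.6 CPM per kilobase). The lower 6 members stayed under 10 CPM per kilobase in every library, with Fgfr2 the highest of them by the mean of the 5 libraries.

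The ratio of Fgfrl1 to Fgfr1 within a library does not depend on scaling between libraries. Per kilobase it was 3.53 (95% interval 3.43 to 3.64) in myosin IIA KO CAFs, 2.17 (2.09 to 2.25) in Cre- control CAFs, 0.565 (0.532 to 0.598) with Fn1 siRNA, 0.529 (0.499 to 0.560) with control siRNA and 0.659 (0.622 to 0.698) in untreated PDX CAFs. The ratio of Fgfr2 to Fgfr1 was 0.324 in myosin IIA KO CAFs, 0.183 in Cre- control CAFs, 0.0751 with Fn1 siRNA, 0.0643 with control siRNA and 0.0559 in untreated PDX CAFs. The ratio of Fgfr3 to Fgfr1 was 0.0834, 0.0541, 0.0180, 0.0197 and 0.0117 in the same libraries. Fgfr1 therefore made up a larger part of receptor transcripts per length in the PDX libraries than in the transgenic ones.

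**Figure D2:**
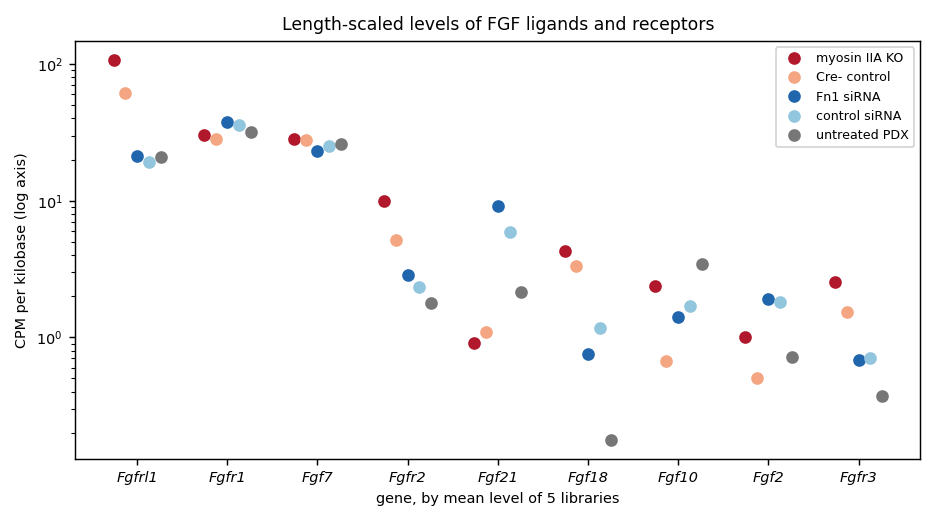
Length-scaled levels of the 9 FGF genes, in CPM per kilobase on a log axis, ordered by the mean of the 5 libraries. Each point is 1 library. Fgfrl1 lay above Fgfr1 in myosin IIA KO CAFs (108 against 30.5) and in Cre- control CAFs (61.3 against 28.3), and below it in the 3 PDX libraries.

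Of the ligands, Fgf10, which directs branching of epithelial organs and is known as a factor of preadipocytes, was at 10.9 CPM in myosin IIA KO CAFs and 3.10 CPM in Cre- control CAFs, at 6.49 CPM with Fn1 siRNA and 7.73 CPM with control siRNA, and at 15.8 CPM in untreated PDX CAFs. Cre- control CAFs were thus the lowest of the 5 and untreated PDX CAFs the highest. Fgf2, basic FGF, which leaves cells without a signal peptide, was at 6.84 CPM in myosin IIA KO CAFs, 3.41 CPM in Cre- control CAFs, 12.9 CPM with Fn1 siRNA, 12.3 CPM with control siRNA and 4.87 CPM in untreated PDX CAFs. Both transfected libraries stood above the other 3.

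Fgf18, known for its part in cartilage and bone growth, had 141 counts (5.10 CPM) in myosin IIA KO CAFs, 104 counts (3.98 CPM) in Cre- control CAFs, 20 counts (0.901 CPM) with Fn1 siRNA, 36 counts (1.39 CPM) with control siRNA and 5 counts (0.212 CPM) in untreated PDX CAFs. Fgf21, an endocrine FGF released mainly by liver and by cells under metabolic stress, had 24 counts (0.869 CPM) in myosin IIA KO CAFs, 27 counts (1.03 CPM) in Cre- control CAFs, 194 counts (8.74 CPM) with Fn1 siRNA, 147 counts (5.66 CPM) with control siRNA and 48 counts (2.03 CPM) in untreated PDX CAFs. Fgf18 was highest in the transgenic cultures and Fgf21 in the transfected ones. Of the 45 values of the 9 genes, 42 were at 1 CPM or more, the other 3 being Fgf18 with Fn1 siRNA and in untreated PDX CAFs, and Fgf21 in myosin IIA KO CAFs.

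Of 17 other FGF ligand genes, 15 were under 1 CPM in all 5 libraries. The exceptions were Fgf11, which encodes an intracellular FGF-related protein, at 4.09 CPM in myosin IIA KO CAFs and 1.68 CPM in Cre- control CAFs, and Fgf1, which reached 1.00 CPM with control siRNA. Fgf22 was at 0.254 to 0.856 CPM. Fgfr4, the remaining kinase receptor, was at 0.0383 to 0.253 CPM. Klb encodes β-Klotho, the co-receptor that FGF21 needs. It was at 11.4 CPM in myosin IIA KO CAFs and 1.30 CPM in Cre- control CAFs, and at 0.169 to 0.225 CPM in the 3 PDX libraries, where Fgf21 was higher than in the transgenic ones. Esrp1, an epithelial splicing regulator that favors the IIIb form, had no count in any library, which allows up to 0.135 CPM, and Esrp2 was at 0.651 to 2.25 CPM. Rbfox2 and Ptbp1, which act on the same exon choice, were at 249 to 315 CPM and 344 to 521 CPM.

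The comparison of myosin IIA KO with Cre- control CAFs asks what loss of the myosin IIA heavy chain changed. Fgf10 and, at the threshold itself, Fgf2 were over 2-fold higher in KO CAFs, and Fgfr2, Fgfrl1 and Fgfr3 were 1.91-fold, 1.76-fold and 1.66-fold higher. The threshold of 2-fold is that of the study, without its adjusted p-value, and was applied to genes that reached 1 CPM in either library of a pair. All 9 members met this in all 4 comparisons. Fgf10 had 301 counts in myosin IIA KO CAFs, against 81 in the Cre- control, a log2 ratio of 1.81 (95% interval 1.45 to 2.19, 3.50-fold). Fgf2 had 189 and 89 counts, a log2 ratio of 1.00 (0.63 to 1.39), so its interval included values on both sides of 2-fold. The log2 ratio was 0.93 (0.84 to 1.03) for Fgfr2, 0.81 (0.76 to 0.87) for Fgfrl1 and 0.73 (0.52 to 0.95) for Fgfr3. Those of Fgfr1 (0.11, 0.06 to 0.15) and Fgf7 (0.04, -0.04 to 0.12) were close to 0. Fgf18 (0.36, -0.02 to 0.74) and Fgf21 (-0.25, -1.11 to 0.60) had intervals that included 0, so a difference was not detectable at this depth.

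Of the 9 members 2 were over 2-fold higher in KO CAFs and 0 lower, where 3.27% of 13311 genes were higher and 1.74% lower. The members' median log2 ratio was 0.73, that of all genes -0.0061. For Fgf10 alone the whole interval lay beyond 2-fold, as for 2.30% of all genes in either direction. The level of Fgf10 in KO CAFs was still below that of untreated PDX CAFs (log2 ratio -0.53, -0.76 to -0.31), so its direction changed with the reference. Untreated PDX CAFs differ from KO CAFs in origin as well as in the knockout, so this ratio is not that of the knockout alone. Fgfr2 (2.47), Fgfrl1 (2.36) and Fgfr3 (2.76) were higher in KO than in untreated PDX CAFs too, a comparison that joins the knockout with the origin of the cultures.

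Markers of adipocytes moved in the same comparison. All 8 were higher in KO CAFs and 7 of 8 over 2-fold, where 3.27% of 13311 genes were over 2-fold higher and 1.74% lower. In Cre- control CAFs 7 of 8 were at 1 CPM or more, and the other met the filter only through KO CAFs. The sum of the 8 was 3493 CPM in KO CAFs, against 973 CPM in Cre- control CAFs and 407 to 556 CPM in the PDX libraries. Adipoq was at 159 CPM in KO and 18.9 CPM in Cre- control CAFs, with no count in the 3 PDX libraries. Smooth muscle and pericyte markers summed to 3539 CPM in KO CAFs and 8167 CPM in Cre- control CAFs, with 3 of 6 over 2-fold lower and 1 higher. Of the 10 fibroblast markers 9 were lower in KO CAFs, 1 of them over 2-fold, with a median log2 ratio of -0.34. Their sum was 40667 CPM in KO CAFs and 52578 CPM in Cre- control CAFs. The part of these shifts in the FGF ratios was not tested. In bulk RNA a change in the share of cells of a type and a change in RNA per cell cannot be told apart.

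**Figure D3:**
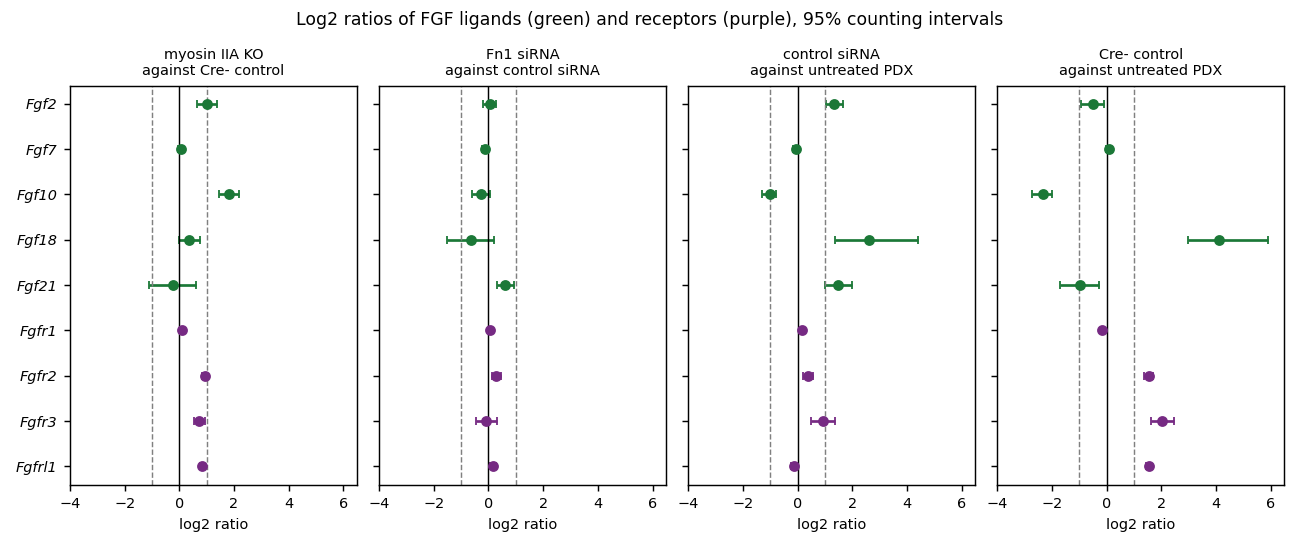
Log2 ratios of the 9 FGF genes in 4 comparisons, each the upper-named library over the library it is set against, with exact conditional binomial 95% intervals that cover counting error only. Solid lines mark equal levels and dashed lines 2-fold. In the knockout comparison Fgf10 (1.81) and Fgf2 (1.00) reached 2-fold, in the Fn1 siRNA comparison no gene did. The widest interval was that of Fgf21 in the knockout comparison and that of Fgf18 in the other 3.

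Fn1 siRNA was compared with control siRNA in CAFs of the same PDX origin, which asks what loss of fibronectin transcript changed. None of the 9 members passed 2-fold, where 0.496% of 12898 genes were over 2-fold higher and 0.341% lower, and the whole interval of 0.116% lay beyond 2-fold in either direction. The largest increase was that of Fgf21, with 194 counts with Fn1 siRNA and 147 with control siRNA (log2 ratio 0.61, 0.30 to 0.93, 1.53-fold). Fgf18 had a log2 ratio of -0.62 (-1.50 to 0.19), from 20 and 36 counts, which counting error alone could give. Fgfr2 was at 0.28 (0.12 to 0.44), Fgfrl1 at 0.15 (0.04 to 0.26), Fgfr1 at 0.06 (0.02 to 0.10) and Fgf7 at -0.13 (-0.22 to -0.03). The intervals of Fgf2 (0.05), Fgfr3 (-0.07) and Fgf10 (-0.27) included 0. The median of the members was 0.05, that of all genes -0.0029. Of the 3 adipocyte markers and 5 smooth muscle markers that could be compared, 0 passed 2-fold.

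Control siRNA CAFs were compared with untreated PDX CAFs, a pair that differs in transfection with an siRNA without a target in the study. They share the untreated library with the comparison by origin below. The 4 genes past 2-fold were ligands, and Fgf7, the remaining ligand, was nearest to 0. Fgf18 (36 against 5 counts) had a log2 ratio of 2.60 (1.35 to 4.42), or 1.94 with 5 counts added, and passed the filter only through the transfected library. Fgf21 (147 against 48 counts) was at 1.47 (1.00 to 1.98) and Fgf2 (320 against 115 counts) at 1.33 (1.03 to 1.66), while Fgf10 (201 against 372 counts) was at -1.03 (-1.28 to -0.78). Fgfr3 had 132 against 63 counts, a log2 ratio of 0.92 (0.48 to 1.38), and Fgfr2 (0.38), Fgfr1 (0.18), Fgf7 (-0.07) and Fgfrl1 (-0.14) lay nearer to 0.

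In this pair 3 of 9 members were over 2-fold higher and 1 lower, where 2.97% of 13078 genes were higher and 2.73% lower. The whole interval was beyond 2-fold for 2 members, Fgf18 and Fgf2, and for 2.16% of all genes, the lower bound of Fgf21 being just under it (0.997). This pair shares the control siRNA library with the Fn1 siRNA comparison. Smooth muscle and pericyte markers summed to 5052 CPM with control siRNA and 1600 CPM in untreated PDX CAFs, with 4 of 5 compared over 2-fold higher. Myh11 (54 against 4 counts), Cspg4 (92 against 22) and Des (29 against 16) met the filter only through the transfected library. Rgs5, the remaining marker, was lower (5 against 16 counts) and met the filter in neither library. Of the 3 adipocyte markers compared, Fabp4 had a log2 ratio of -1.28, Lpl of -0.51 and Pparg of 0.94, and the 8 markers summed to 407 CPM with control siRNA and 556 CPM in untreated PDX CAFs. The part of both lists in the ratios was not tested.

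Cre- control CAFs were compared with untreated PDX CAFs. Neither had a knockout or a transfection, but they differ in mouse strain, in tumor of origin (mouse tumoroids or human tumor) and in exposure to tamoxifen. They differ too in the irradiation and bone marrow transplant described for the transgenic hosts, and in their floxed Myh9 and mT/mG alleles. The graft site in the methods also differs (interscapular fat pad or subcutaneous). These cannot be told apart. Fgf18 had 104 against 5 counts, a log2 ratio of 4.11 (2.96 to 5.88), or 3.34 with 5 counts added. The receptors Fgfr3 (2.03, 1.64 to 2.45), Fgfrl1 (1.54, 1.46 to 1.63) and Fgfr2 (1.54, 1.38 to 1.70) were also higher in Cre- control CAFs, while Fgfr1 was at -0.17 (-0.22 to -0.13). Fgf10 was 5.06-fold lower in Cre- control CAFs, with 81 against 372 counts (log2 ratio -2.34, -2.71 to -2.00). Fgf21 (-0.96, -1.71 to -0.27) and Fgf2 (-0.51, -0.93 to -0.10) were lower by less than 2-fold, and Fgf7 was at 0.08 (-0.01 to 0.16).

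Between these origins 4 of 9 members were over 2-fold higher in Cre- control CAFs and 1 lower, each by its whole interval. Fgf18, among the 4, met the filter only through the Cre- control library. Differences were common in all genes too, with 10.9% of 13522 genes over 2-fold higher, 8.36% lower, and 12.9% with a whole interval beyond 2-fold. Of the markers compared, 6 of 7 adipocyte, 6 of 6 smooth muscle and pericyte and 6 of 10 fibroblast markers were over 2-fold higher in Cre- control CAFs. Only 3 of 8 adipocyte, 2 of 6 smooth muscle and pericyte and 8 of 10 fibroblast markers were at 1 CPM or more in untreated PDX CAFs. The other markers compared met the filter only through the Cre- control library, where they were higher. The part of these markers was not tested. This comparison shares the Cre- control library with the knockout comparison. For Fgfr2, Fgfrl1 and Fgfr3 the log2 ratios by origin (1.54, 1.54 and 2.03) were larger than those by knockout (0.93, 0.81 and 0.73).

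None of 16 adaptor and effector genes, among them the docking protein gene Frs2, the phosphatase gene Ptpn11 (283 to 404 CPM) and Mapk3 (142 to 194 CPM), which encodes ERK1, passed 2-fold in any of the 4 comparisons. The proteins they encode carry the FGF signal inside the cell. Their median log2 ratio was 0.0035 between KO and Cre- control CAFs, and the ratios farthest from 0 were those of Gab1 (0.77) and Shc1 (0.74) in Cre- control against untreated PDX CAFs. Of 12 heparan sulfate and FGF binding proteins compared between KO and Cre- control CAFs, 0 passed 2-fold. The basement membrane proteoglycan gene Hspg2 (1245 to 1592 CPM) was the highest per kilobase of that list, ahead of the syndecan gene Sdc4 (69.4 to 259 CPM). The glypican genes Gpc4 (1.81) and Gpc6 (1.73) and Sulf2 (1.84), an enzyme that trims heparan sulfate, were over 2-fold higher in Cre- control than in untreated PDX CAFs (log2 ratios). There 4 of 13 binding proteins were over 2-fold higher and 1 lower, and 1 of 12 synthesis and editing genes was higher. Of all genes 10.9% were higher and 8.36% lower. Gpc2 (70 against 23 counts) and Flrt1 (34 against 8), among the 4, met the filter only through the Cre- control library, where they were higher. The lower gene, Flrt3 (-1.81, 23 against 74 counts), encodes a membrane protein that binds FGF receptors. It met the filter only through the untreated PDX library. The polymerases of heparan sulfate, Ext1 (167 to 268 CPM) and Ext2 (210.0 to 242 CPM), led the 13 synthesis and editing genes per kilobase. Of these, 0 of 12 compared passed 2-fold between KO and Cre- control or between Fn1 siRNA and control siRNA. Over all genes 3.27% were over 2-fold higher and 1.74% lower between KO and Cre- control CAFs. The shares were 0.496% and 0.341% for Fn1 siRNA against control siRNA, and 2.97% and 2.73% for control siRNA against untreated PDX CAFs. At these shares lists of 12 or 16 genes would hold few or none past 2-fold.

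Of 12 genes induced by FGF and ERK signaling, 2 were over 2-fold higher and 0 lower between KO and Cre- control CAFs, where 3.27% of all genes were higher and 1.74% lower. Dusp4, a nuclear phosphatase of ERK, was at 42.0 CPM in KO and 10.8 CPM in Cre- control CAFs (log2 ratio 1.96, 1.78 to 2.16), and Phlda1 was at 18.6 and 9.03 CPM (1.04, 0.81 to 1.27). The list's median was 0.23. The feedback inhibitors had none of 8 past 2-fold and a median of -0.064, with Spry4 at 0.95 and Spry1 at -0.88. Spry1 was at 48.6 CPM in KO and 89.4 CPM in Cre- control CAFs, and Spry4 at 37.2 and 19.3 CPM, so that members of the same family stood on opposite sides of 0.

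With Fn1 siRNA 11 of 12 target genes had log2 ratios below 0 against control siRNA, with a median of -0.18 and none past 2-fold, against 0.496% of all genes higher and 0.341% lower. Of all 12898 genes 6570 were below 0. Of 9 feedback inhibitors 7 were below 0 and none passed 2-fold. Between control siRNA and untreated PDX CAFs 6 of 12 target genes were over 2-fold higher and 0 lower, against 2.97% and 2.73% of all genes, led by Ier3 (2.28), Dusp5 (1.94) and Egr1 (1.75), with a median of 1.04, and of 9 feedback inhibitors Dusp6 (1.10) and Spry2 (1.03) were. Egr1, an early response transcription factor, was at 299 CPM with control siRNA and 88.8 CPM in untreated PDX CAFs. Dusp6 was at 34.6 and 16.1 CPM.

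Between Cre- control and untreated PDX CAFs 9 of 12 target genes were over 2-fold lower and 0 higher, against 8.36% and 10.9% of all genes, with a median log2 ratio of -1.60. The cyclin D1 gene Ccnd1 was at 13.6 CPM in Cre- control and 186 CPM in untreated PDX CAFs (log2 ratio -3.78, -3.94 to -3.62). The ETS factors Etv1 (-3.36) and Etv4 (-2.88) were also lower, as was Spred3 (-1.36), while Spry1 was higher (2.11, 1.97 to 2.26). Fosl1 and Myc, the 2 target genes with the highest mean CPM per kilobase, were at 17.4 and 60.6 CPM in Cre- control CAFs and at 88.2 and 84.7 CPM in untreated PDX CAFs. These genes respond to other growth factors as well as to FGFs.

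**Figure D4:**
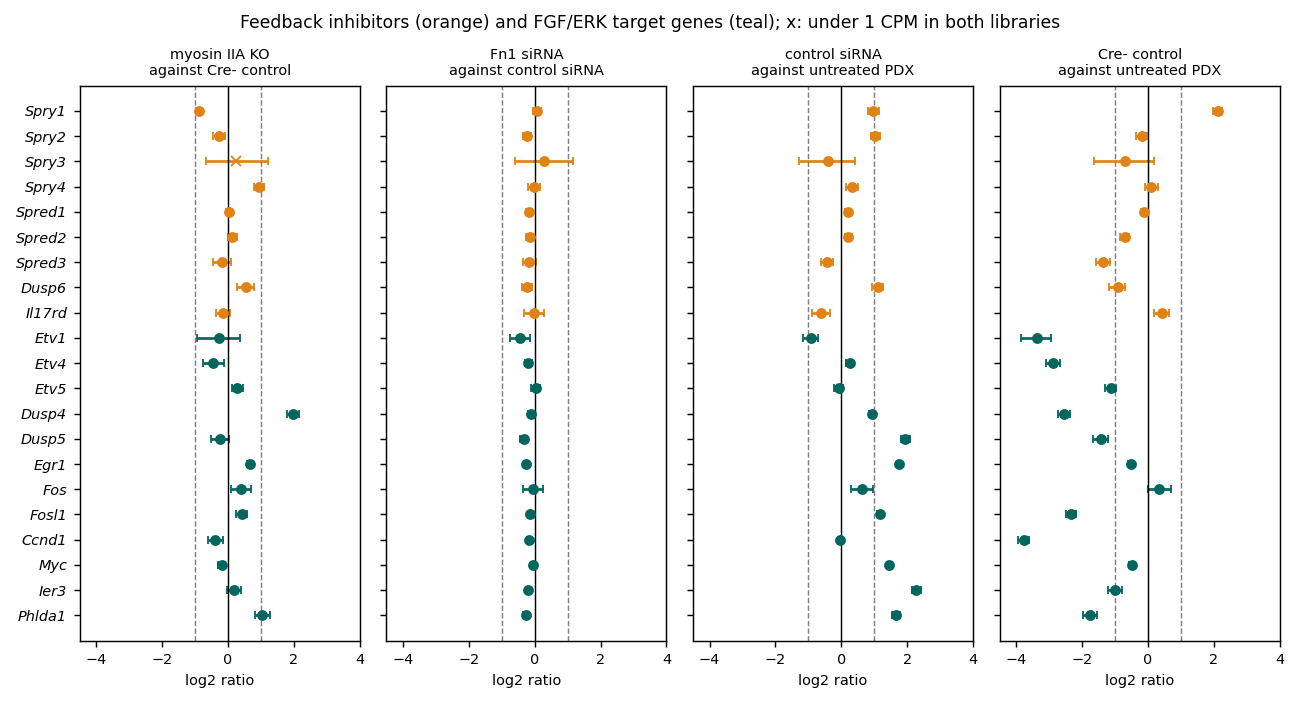
Log2 ratios of 9 feedback inhibitors and 12 target genes of FGF and ERK signaling in the 4 comparisons, each the upper-named library over the library it is set against, with 95% intervals that cover counting error only. Crosses are genes under 1 CPM in both libraries. Targets lay mostly right of 0 for control siRNA against untreated PDX CAFs (median 1.04) and left of 0 for Cre- control against untreated PDX CAFs (median -1.60).

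The genes whose pattern over the 5 libraries was closest to the 3 members with the widest range were sought among 10768 protein-coding genes that reached 5 CPM in some library, by the root mean square difference of centered log2 CPM. For Fgf18 these were Cspg4 (0.333), Kctd15 (0.392) and Tspan18 (0.417). Cspg4, which encodes the NG2 proteoglycan of pericytes, was at 25.6 CPM in myosin IIA KO CAFs, 17.8 CPM in Cre- control CAFs, 3.61 CPM with Fn1 siRNA, 3.54 CPM with control siRNA and 0.932 CPM in untreated PDX CAFs. For Fgf21 they were Rpl30 (0.191), Tgm2 (0.272) and Has2 (0.309). Has2, a hyaluronan synthase, was at 10.3 CPM in myosin IIA KO CAFs, 8.23 CPM in Cre- control CAFs, 53.7 CPM with Fn1 siRNA, 53.8 CPM with control siRNA and 18.9 CPM in untreated PDX CAFs. Rpl30, a ribosomal protein gene, has near-identical copies in the genome, between which reads can be split, so its counts are uncertain. For Fgfr3 they were Zbtb7c (0.127), Zdhhc14 (0.157) and Runx1 (0.174). The transcription factor gene Runx1 was at 139 CPM in myosin IIA KO CAFs, 71.9 CPM in Cre- control CAFs, 37.5 CPM with Fn1 siRNA, 35.1 CPM with control siRNA and 14.8 CPM in untreated PDX CAFs. These are likenesses over 5 libraries chosen from many genes, and are given as a description.

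In GENCODE M21 (GRCm38) the spans of all 9 genes were those of the deposited table. Fgf2 (ENSMUSG00000037225) lies on the plus strand of chromosome 3 from 37348346 to 37410108, and 13.2% of its exon bases overlap those of Gm43439 and of the antisense gene Nudt6. Nudt6 was at 1.03 to 1.35 CPM and Gm43439 had no count. Fgfr3 (ENSMUSG00000054252) lies on the plus strand of chromosome 5 from 33721674 to 33737068, and 13.9% of its exon bases overlap G630022F23Rik on the other strand, which had 0 to 4 counts per library. Fgfr2 (ENSMUSG00000030849), on the minus strand of chromosome 7 from 130162451 to 133123350, shares 3.04% with Ctbp2 on its own strand, which was at 38.5 to 64.1 CPM. This annotated span overlaps 69 other genes, and the promoter window shown for Fgfr2 lies inside it. The length used for CPM per kilobase of Fgfr2, 10328 bases, is that of this whole model. The promoter windows shown for Fgf10 and Fgfrl1 also lie wholly inside the annotated spans of those genes. Fgf10 (ENSMUSG00000021732), on chromosome 13 from 118669791 to 118792115, shares 2.67%, and Fgfr1 (ENSMUSG00000031565), on chromosome 8 from 25513654 to 25575718, shares 1.66%. Fgfrl1 (ENSMUSG00000008090, chromosome 5, 108692382 to 108706924), Fgf7 (ENSMUSG00000027208, chromosome 2, 126034658 to 126091185), Fgf18 (ENSMUSG00000057967, chromosome 11, 33117430 to 33147400) and Fgf21 (ENSMUSG00000030827, chromosome 7, 45613886 to 45615490) share none. The sources used here do not say whether strand was used in counting, so reads in shared bases cannot be assigned.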

How the data were processed

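RNA of 5 mouse CAF cultures, 1 library per condition, was sequenced by the study. The deposited table holds the authors' raw counts, not normalized, for each gene of mouse build mm10 (per the submitters' processing notes), with gene lengths and coordinates. For aligner, counter, annotation release and strand, nothing is stated (not given in the sources used here). Rows of 104 unnamed transcripts (0.0422 to 0.0551% of counts) were left out.

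TMM factors were computed on these counts with edgeR 4.0.16 (R 4.3.3), within a pair for ratios and over 5 libraries for CPM. Log2 ratios had 0.5 counts added in proportion to library size, for genes reaching 1 CPM in either library of the pair. Intervals of 95% are exact conditional binomial for ratios and exact Poisson for levels, at totals of 22949566 to 26581706 counts. Reads without molecular identifiers are not independent molecules, so these intervals and the limit of 3 counts cover counting error only. CPM per kilobase used the deposited gene length. No test was made, as no condition has replicates. The ratio and interval code was tested on simulated counts.

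All 9 members were named, and of each of 8 pathway lists the 2 genes highest per kilobase (mean of 5 libraries) and up to 3 per comparison with the largest ratio past 2-fold, at 5 CPM or more in either library. Likeness was sought for the 3 members of widest range. Other genes named, such as Spry4, Flrt1, Flrt3, Gpc2, Gab1, Shc1, Fgf1, Klb at its levels, Esrp1, Esrp2 and the markers, were chosen after their values were seen. The members and lists were chosen with earlier results of these data known. Scaling was varied by upper-quartile factors, by size factors of DESeq2 1.42.0 and by plain totals. Other alternatives were a filter of 10 CPM, none, an added count of 5, whole intervals past 2-fold, untreated PDX CAFs as reference and, chosen after seeing the data, the median coding transcript length. Python 3.11.15, numpy 2.4.6, pandas 2.3.3, scipy 1.17.1 and matplotlib 3.10.9 were used.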

Additional observations from a re-analysis of the deposited data

How the results depend on the processing

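Between myosin IIA KO and Cre- control CAFs 2 of 9 members passed 2-fold, and 1, Fgf10, under upper-quartile scaling (Fgf2 log2 ratio 0.99), with 5 counts added (Fgf2 0.97), with a filter of 10 CPM, which left Fgf2 out, and with the whole interval past 2-fold. Under library totals Fgfr2 passed it too (1.01). With untreated PDX CAFs as reference 5 members passed 2-fold in KO CAFs, and Fgf10 reversed to -0.53, against 1.81 with Cre- control CAFs as reference, as its level in untreated PDX CAFs (15.8 CPM) was above those in KO (10.9 CPM) and Cre- control CAFs (3.10 CPM). Fgfr1 also changed sign there (-0.06), in a pair that joins the knockout with the origin of the cultures. With that reference 3 members passed 2-fold with Fn1 siRNA, against 0 with control siRNA as reference: Fgf21 (2.09), Fgf2 (1.40) and Fgf10 (-1.28). Between control siRNA and untreated PDX CAFs 4 members passed it, and 2 with a filter of 10 CPM and with the whole interval past 2-fold. Fgf10 was at -0.998 there with DESeq2 size factors, which left 3. Between Cre- control and untreated PDX CAFs 5 members passed 2-fold, 6 under library totals, with Fgf21 at -1.01, and 4 with a filter of 10 CPM, which left Fgf18 out. With 5 counts added Fgf18 was at 3.34 there, against 4.11, and at 1.94 in control siRNA against untreated PDX CAFs, against 2.60.

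Counts over all genes past 2-fold (higher, lower) also moved. They were 435 and 231 in KO against Cre- control CAFs, with 3760 and 2606 without a filter, 162 and 73 at 10 CPM and 223 and 83 by whole intervals. For Fn1 siRNA against control siRNA they were 64 and 44, with 2444 and 2767, 8 and 5, and 10 and 5 under the same settings, and 44 and 18 with 5 counts added. For control siRNA against untreated PDX CAFs they were 389 and 357, with 3250 and 2996, 145 and 114, and 172 and 110, and 320 and 454 under library totals. For Cre- control against untreated PDX CAFs they were 1475 and 1130, with 5115 and 3784, 657 and 557, and 962 and 789. Why members passed the threshold under a scaling and not another was not tested.

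Per kilobase of median coding transcript length, a setting chosen after seeing the data, Fgfrl1 stayed the highest member in both transgenic libraries and Fgfr1 in the 3 PDX libraries, while other ranks changed. Fgfrl1 came above Fgf7 in all 3 PDX libraries, Fgfr2 (44.5 CPM per kilobase) came between Fgfr1 (79.4) and Fgf7 (37.2) in KO CAFs, and the mean of Fgf2 was 15.1 CPM per kilobase, against 1.19 with the deposited length. Ratios between genes within a library move with the length used. Fgf18, with 5 counts in untreated PDX CAFs, and Fgf21, with 24 to 48 counts in 3 libraries, were limited by depth. No paired analysis was possible because each condition has 1 library, and no replicate could be left out.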
